A study of Homo sapiens with 6 samples.

Results

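The collagen genes were taken as every row of the deposited count table whose symbol has the form COL, a number, A and a number. This gave 43 genes of the 57781 rows, with 1 further symbol not reported here. The rule used the names of the genes and no measured value, but it was chosen with earlier results of these data known. The 43 genes were sorted into 11 fibrillar collagens, 6 basement membrane collagens (the chains of type IV) and 26 other collagens. RNA sequencing was done on A549, a long-established line from a human lung adenocarcinoma that the labels class as NSCLC. The vector group (genotype WT) had 3 libraries of cells with a control vector. The shMETTL3 group (genotype METTL3 knockdown) had 3 libraries of cells expressing a hairpin that targets METTL3, the enzyme that writes m6A onto mRNA. All 6 libraries came from this line, no drug treatment is labelled, and neither the number of hairpins nor the use of clones is stated, so p-values measure only the spread between these libraries.

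Collagens are secreted matrix proteins whose chains wind into a triple helix along stretches where glycine recurs at a fixed spacing. Fibrillar collagens assemble into cross-striated fibrils, type IV chains assemble into the sheet-like network under epithelia, and the other collagens link, coat or anchor these structures or span the cell membrane. Fibroblasts are the main makers of fibrillar collagens in the lung, while alveolar epithelial cells contribute type IV chains to their own basement membrane.

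Library totals ran from 14931426 to 19108928 counts. At this depth 3 counts in a library stood at 0.150 to 0.189 CPM (counts scaled to a common library size, here with edgeR's TMM factors), and this was used as the floor for folds and covers counting error only. METTL3 itself had 49.9 ± 0.676 CPM in vector cells and 19.4 ± 0.525 CPM in knockdown cells (SD, n = 3 each, log2 fold change -1.36, SE 0.067, adjusted p = 4.57e-16 by the quasi-likelihood test of edgeR, adjusted after Benjamini and Hochberg). By an exact two-sided permutation of the libraries p was 0.1, and 3 against 3 cannot go lower. The epithelial markers EPCAM, CDH1, KRT7, KRT8, KRT18 and KRT19 were all expressed, with a summed level of 9971 to 10634 CPM in the vector and 5153 to 5602 CPM in the shMETTL3 libraries. KRT8 made up most of this sum, and 5 of the 6 markers fell while KRT7 rose.

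Collagen mRNA was more abundant in METTL3-knocked down cells. Summed over the 43 genes it came to 424 ± 7.09 CPM in the vector and 1314 ± 15.1 CPM in the shMETTL3 libraries (SD, n = 3 each), a 3.10-fold difference. Of the 43 genes, 25 had enough counts to be tested, and 21 of these rose, 3 fell and 1 (COL17A1) did not pass the test. Among genes with at least 10 counts in every library, the largest rises were those of COL4A6 (37.1-fold), COL5A1 (18.1-fold) and COL7A1 (11.5-fold). In bulk RNA, a change in the share of cells making a transcript and a change in transcript per cell cannot be told apart.

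These counts stand against a broad response. Among all 15125 genes tested, 66.6% were called at an adjusted p under 0.05, with 33.7% higher and 32.9% lower, so that 1 call in itself says little about a collagen. The same holds for groups that do not overlap, since the shMETTL3 libraries were all above the vector libraries for 35.2% of the tested genes and all below them for 34.3%. Over all genes, 10.2% were higher by at least 1 on the log2 scale, and 16 of the 25 tested collagens were. The 25 tested collagens had a median log2 fold change of 1.85, which was the same when the genes near the floor took their bounds, against 0.0022 over all genes. This median was 1.19 with DESeq2, 1.35 without a filter on low counts and 1.48 with at least 10 counts in every library. A count or median over tested genes favours those that rose, because COL11A1, COL15A1, COL16A1, COL20A1, COL21A1 and COL22A1 passed the count filter through the shMETTL3 libraries alone and COL25A1 through the vector libraries alone. Of the 18 collagens above the filter in both groups, 15 rose, 10 of them by at least 1 on the log2 scale, 2 fell and 1 did not pass. When only library totals were used for scaling, the all-gene median was 0.18 and 65.8% of called genes were higher, against 50.6% under TMM, while the collagens gave 22 higher and 2 lower.

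**Figure D1:**
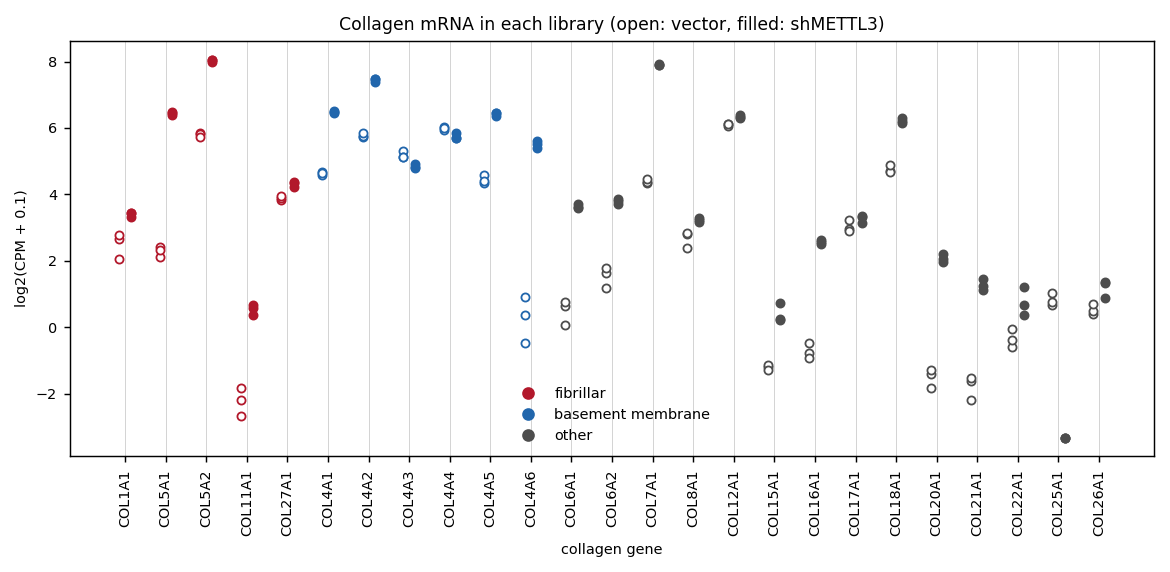
Level of each of the 25 tested collagen genes, as log2(CPM + 0.1) on the vertical axis, with 1 point per library (open circles for 3 vector, filled circles for 3 shMETTL3 libraries, colored by class). Most filled points lie above the open ones, COL4A3, COL4A4 and COL25A1 lie below them, and COL17A1 is the gene whose groups overlap.

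By class, 5 of the 11 fibrillar collagens were tested and all 5 rose, with a median log2 fold change of 2.23. All 6 basement membrane collagens were tested, of which 4 rose and 2 fell, with a median of 1.75. Of the 26 other collagens 14 were tested, with 12 higher, 1 lower and 1 not passing, and a median of 1.67. This last median was 1.28 with at least 10 counts in every library, 1.18 with DESeq2 and 1.35 without a filter on low counts. Only 8 of these 14 were above the count filter in both groups, against 4 of the 5 fibrillar and all 6 basement membrane collagens. The fibrillar median rests on few genes and was 1.47 without vector replicate 1, 1.01 with DESeq2 and 0.989 without a filter on low counts, where the basement membrane median was 1.72, 1.75 and 1.74, so the order of these classes turned round. The differences between the classes were not tested. With COL7A1, COL15A1 and COL18A1, which lie in the basement membrane zone, counted with type IV, 7 of 9 rose and 2 fell. COL17A1, which ties epithelial cells to their basement membrane and was not called, was left out of this count. COL15A1 passed the count filter through the shMETTL3 libraries alone, which favours a rise.

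**Figure D2:**
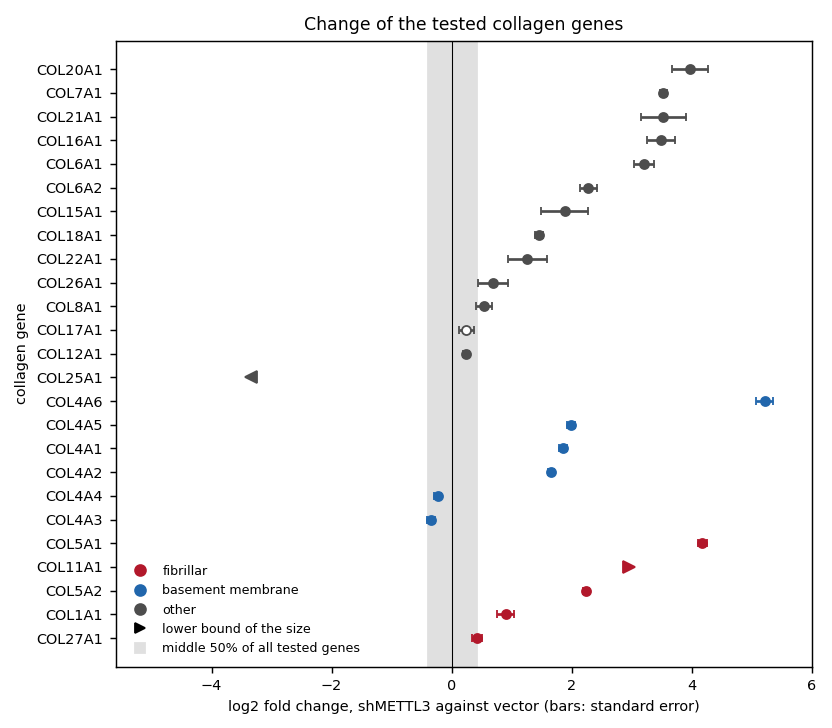
Log2 fold change of the 25 tested collagen genes between shMETTL3 and vector libraries (horizontal axis, bars are the standard error, n = 3 per group), ordered within each class, with the open circle not called and triangles for lower bounds where a group lay at the floor. The grey band is the middle 50% of all 15125 tested genes, from -0.40 to 0.41, and 16 collagens lie to the right of 1 while COL25A1 lies alone at the far left.

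Type V collagen, which sets the diameter of fibrils by nucleating them together with type I, carried the fibrillar rise. COL5A2 was the most abundant collagen per length in both groups. It was at 56.9, 56.1 and 53.4 CPM in vector replicates 1, 2 and 3 and at 266, 266 and 251 CPM in shMETTL3 replicates 1, 2 and 3. The groups lay far apart, and the fold was 4.71 (log2 fold change 2.23, SE 0.055, adjusted p = 8.54e-23). Its partner chain COL5A1 was at 4.23, 5.21 and 4.90 CPM in the vector and 84.4, 88.4 and 86.8 CPM in the shMETTL3 libraries (log2 fold change 4.18, SE 0.083, adjusted p = 1.30e-24). Per kilobase of exon COL5A1 went from 0.429 to 7.75 CPM with no overlap between groups, while its 20 nearest tested genes on chromosome 9 had a median of 0.49. The third type V chain, COL5A3, had 2, 3 and 10 counts in the vector and 6, 9 and 12 counts in the shMETTL3 libraries and was not tested.

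Type I collagen, the chief fibril former of connective tissue, was present as its COL1A1 chain only. COL1A1 was at 4.01, 6.17 and 6.74 CPM in the vector and at 9.94, 10.7 and 10.8 CPM in the shMETTL3 libraries (log2 fold change 0.90, SE 0.142, adjusted p = 3.47e-06). The vector libraries spread more than the shMETTL3 libraries, and vector replicate 1 was the lowest. COL1A2, whose chain joins COL1A1 in the usual type I molecule, had 0 counts in 5 libraries and 3 counts in shMETTL3 replicate 3. COL3A1, the reticular fiber collagen, was near the floor with 1 to 5 counts in the vector and 5 to 8 counts in the shMETTL3 libraries.

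COL27A1 and COL11A1 were the other fibrillar collagens tested. COL27A1, a cartilage-associated fibrillar chain, was at 14.0, 14.8 and 15.3 CPM in the vector and 18.5, 20.5 and 20.3 CPM in the shMETTL3 libraries (log2 fold change 0.42, SE 0.085, adjusted p = 9.00e-05). On chromosome 9 its 20 nearest tested genes had a median of 0.53 on the same log2 scale, which is above its own value. COL11A1, a minor chain of cartilage fibrils that stromal cells of tumors also make, had 1, 2 and 3 counts in the vector and 29, 28 and 19 counts in the shMETTL3 libraries, and was at least 7.72-fold higher (adjusted p = 3.46e-07). COL2A1, COL24A1 and COL11A2 were not tested.

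The 0 counts of COL11A2 in all 6 libraries cannot be read as absence. The gene lies on chromosome 6 of GRCh37, from 33130458 to 33160276, at the HLA region. Of the 100 protein-coding genes from DDR1 to COL11A2, 76 had 0 counts in every library, against 15.4% of all 18968 matched protein-coding genes. RPS18, a ribosomal protein gene just beyond COL11A2 that every dividing cell uses, had 1 count in the 6 libraries together. COL6A5 and COL9A1 were the other collagens at 0 in every library, each of which allows up to 3 counts per library.

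The type IV chains split into pairs that lie head to head, each pair being transcribed outward from a short shared stretch. RefSeq places the start sites of COL4A1 and COL4A2 127 bases apart on chromosome 13 of GRCh38.p14, and those of COL4A4 and COL4A3 419 bases apart on chromosome 2. COL4A6 has start sites 380 and 1416 bases from that of COL4A5 on chromosome X. The windows below come from these shared stretches and from the promoters of COL6A2 and COL7A1, as examples of the head-to-head pairs and of strongly changed collagens outside them, and are printed 5′ to 3′ on the strand of the named gene with the motif named on each line in capitals: the CCAAT box or the GC box (GGGCGG) on either strand, or the TATA box (TATAAA) on the gene's strand. Other motifs stay in lower case, such as the GC boxes on both sides of the TATA box of COL6A2.
COL4A2, CCAAT box, chr13:110307166-110307195, plus strand: cgggccgagctccCCAATttgttggcgctg
COL4A3, GC box, chr2:227164589-227164618, plus strand: gccctacaaaacCCGCCCcggccgagtggc
COL4A5, CCAAT boxes, chrX:108439588-108439617, plus strand: acaCCAATgagATTGGaactgagcctagaa
COL6A2, TATA box, chr21:46098068-46098097, plus strand: ggcggggcggggTATAAAgggggcggcgcc
COL7A1, GC box, chr3:48595330-48595359, minus strand: ccgcctgccgctCCGCCCcccgagatcagg
The RefSeq table held promoters for 32 of the 43 collagens. Within 250 bases before a start, 65.6% of these 32 held a GC box, against 46.2% of all 27305 genes in the table. A CCAAT box was found in 34.4% against 37.0%, and a TATA box on the gene's strand in 15.6% against 8.38%. Head-to-head genes share part of their windows, and a match describes letters only.

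COL4A1 and COL4A2 encode the chains of the type IV network found under nearly all epithelia, and both rose by similar factors. COL4A1 was at 23.9, 25.3 and 24.8 CPM in the vector and 86.8, 91.5 and 88.7 CPM in the shMETTL3 libraries (log2 fold change 1.85, SE 0.061, adjusted p = 6.43e-20). COL4A2 was at 53.2, 54.1 and 58.0 CPM in the vector and 166, 178 and 177 CPM in the shMETTL3 libraries (log2 fold change 1.66, SE 0.056, adjusted p = 1.10e-19). In both, the lowest shMETTL3 library was far above the highest vector library. The 20 tested genes nearest to the pair had a median log2 fold change of -0.11, below the values of both chains.

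COL4A3 and COL4A4, the chains of the specialised basement membranes of the kidney glomerulus and the lung alveolus, went the other way, by little. COL4A4 was at 65.4, 61.7 and 63.4 CPM in the vector and 57.5, 52.1 and 52.0 CPM in the shMETTL3 libraries (log2 fold change -0.24, SE 0.059, adjusted p = 0.00104). COL4A3 was at 39.3, 35.1 and 34.8 CPM in the vector and 30.04, 28.38 and 27.65 CPM in the shMETTL3 libraries (log2 fold change -0.34, SE 0.071, adjusted p = 0.000118). The groups did not overlap for either gene, yet these falls were smaller than most collagen changes. With scaling by library size alone they shrank to -0.17 for COL4A3 and to -0.061 for COL4A4, whose adjusted p was then 0.391. Over the 20 tested genes nearest to this pair the median log2 fold change was 0.28, above the values of both chains. Exons of COL4A3 overlap a transcript on the opposite strand, whose reads could be counted with it if strand was ignored.

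COL4A5 and COL4A6 are the type IV chains of chromosome X, and COL4A5 is the partner of COL4A3 and COL4A4 in the alveolar network while COL4A6 joins COL4A5 in other basement membranes. COL4A5 was at 20.1, 23.8 and 21.0 CPM in the vector and 86.8, 87.0 and 82.8 CPM in the shMETTL3 libraries (log2 fold change 1.99, SE 0.067, adjusted p = 1.02e-19). COL4A6 had 32, 20 and 10 counts in vector cells and 877, 970 and 667 counts in knockdown cells, or 1.78, 1.20 and 0.613 CPM against 45.4, 48.4 and 42.0 CPM (log2 fold change 5.21, SE 0.144, adjusted p = 1.20e-21). The vector libraries differed among themselves for COL4A6, and without vector replicate 3 or 1 the log2 fold change was 4.91 or 5.62. Chromosome X as a whole lay above the rest, with a median of 0.74 over its other 442 tested genes and of 0.73 over the 20 nearest to the pair. Both chains rose by more than that, and the part of the chromosome-wide level in their rise was not tested.

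COL7A1, the only chain of the anchoring fibrils that tie epithelial basement membranes to the tissue below, showed the smallest adjusted p of the family. It had 359, 341 and 357 counts in the vector and 4553, 4860 and 3807 counts in the shMETTL3 libraries, with means of 20.8 ± 0.989 and 239 ± 3.33 CPM (log2 fold change 3.53, SE 0.060, adjusted p = 8.20e-26). Both groups were tight, and the fold of 11.5 left no overlap. The 20 nearest tested genes on chromosome 3 had a median of -0.11.

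The multiplexins COL18A1 and COL15A1, proteoglycan collagens whose ends release the anti-angiogenic fragments endostatin and restin, rose as well. COL18A1 was at 25.8, 25.4 and 29.5 CPM in the vector and 73.4, 70.8 and 78.0 CPM in the shMETTL3 libraries (log2 fold change 1.46, SE 0.067, adjusted p = 9.79e-17). Its exons share 1563 bases with those of SLC19A1 on the opposite strand, which moved in the opposite direction with a log2 fold change of -0.77 (SE 0.108, adjusted p = 5.43e-07). COL15A1 had 6, 6 and 5 counts in the vector and 30, 22 and 17 counts in the shMETTL3 libraries (log2 fold change 1.88, SE 0.390, adjusted p = 0.000111), a rise whose size rests on few counts.

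Type VI collagen forms beaded filaments around cells from chains 1, 2 and 3. COL6A1 was at 1.45, 0.958 and 1.59 CPM in the vector and 11.9, 13.0 and 12.1 CPM in the shMETTL3 libraries (log2 fold change 3.20, SE 0.166, adjusted p = 1.25e-15). COL6A2, its neighbour on chromosome 21, was at 2.17, 2.99 and 3.37 CPM in the vector and 13.7, 13.1 and 14.4 CPM in the shMETTL3 libraries (log2 fold change 2.27, SE 0.141, adjusted p = 6.82e-14). Both rose without overlap, while the 18 nearest tested genes had a median of -0.096. COL6A3, which completes the type VI molecule, had 3, 1 and 1 counts in the vector and 5, 6 and 1 counts in the shMETTL3 libraries and was not tested, nor was COL6A6.

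The fibril-associated collagens with interrupted helices (FACITs), which coat fibrils and bridge them to other matrix proteins, fell into a well expressed member and several weak ones. COL12A1 was at 70.0, 66.3 and 69.3 CPM in the vector and 84.2, 79.7 and 78.5 CPM in the shMETTL3 libraries (log2 fold change 0.24, SE 0.055, adjusted p = 0.000417). Its change was small although it was among the most abundant collagens. COL16A1 went from 0.613, 0.479 and 0.429 CPM to 5.80, 6.09 and 5.54 CPM (log2 fold change 3.49, SE 0.234, adjusted p = 3.21e-13). Its vector values came from 11, 8 and 7 counts, so its fold carries the error of few counts.

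COL20A1 had 5, 3 and 5 counts in the vector and 73, 81 and 72 counts in the shMETTL3 libraries (log2 fold change 3.97, SE 0.301, adjusted p = 4.14e-12). COL21A1 had 4, 2 and 4 counts in the vector and 40, 53 and 36 counts in the shMETTL3 libraries (log2 fold change 3.52, SE 0.378, adjusted p = 3.65e-09). These FACITs were thus at or near the floor in vector cells and above it in every shMETTL3 library, so that their folds carry the error of few vector counts. COL22A1, a FACIT of tissue junctions, had 10, 11 and 14 counts in the vector and 29, 44 and 19 counts in the shMETTL3 libraries (log2 fold change 1.26, SE 0.327, adjusted p = 0.00128). The call of COL22A1 was lost with DESeq2 and a block for the replicate numbers (adjusted p = 0.0634). COL9A2, COL9A3 and COL19A1 never exceeded 6 counts.

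The membrane-spanning collagens held the only large fall. COL25A1, the precursor of a collagenous component of amyloid plaques, had 35, 25 and 26 counts in the vector but none in any of the 3 shMETTL3 libraries, which puts it at least 10.2-fold lower (adjusted p = 2.36e-09). COL17A1, the hemidesmosome collagen that fastens basal epithelial cells to their basement membrane, was at 7.69, 7.30 and 9.26 CPM in the vector and 8.75, 9.98 and 10.0 CPM in the shMETTL3 libraries (log2 fold change 0.25, SE 0.120, adjusted p = 0.0743). The groups overlapped for COL17A1, which was named after its values were seen. It was called higher when only library totals were used for scaling (0.42, adjusted p = 0.00313), without vector replicate 3 (adjusted p = 0.0191) and without shMETTL3 replicate 1 (adjusted p = 0.0488). COL13A1 and COL23A1 were not tested and stayed at or below 4 counts.

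Among the remaining genes, COL8A1, a short-chain collagen of hexagonal networks, was at 6.96, 5.09 and 7.05 CPM in the vector and 9.68, 9.18 and 8.88 CPM in the shMETTL3 libraries (log2 fold change 0.54, SE 0.131, adjusted p = 0.000707). Its relatives COL8A2 and COL10A1 had at most 5 and 1 counts. COL26A1 had 22, 22 and 25 counts in the vector and 48, 35 and 38 counts in the shMETTL3 libraries (log2 fold change 0.69, SE 0.250, adjusted p = 0.0163), and its call was lost with DESeq2 (adjusted p = 0.104). COL26A1 was also lost without vector replicate 1, shMETTL3 replicate 1 or shMETTL3 replicate 3, with adjusted p of 0.0563, 0.0758 and 0.0504. COL28A1 had at most 8 counts. In all, 18 of the 43 collagens were not tested, of which 9 had at most 3 counts in any library.

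Levels of different genes were compared only per length, as CPM per kilobase of annotated exon. In the vector libraries COL5A2 led with 7.58 ± 0.253 (SD, n = 3) CPM per kilobase, ahead of COL4A4 with 5.37 ± 0.157, COL12A1 with 3.63 ± 0.105 and COL18A1 with 3.18 ± 0.269. COL4A3 and COL4A2 were at 2.96 ± 0.207 and 2.86 ± 0.134 CPM per kilobase. COL18A1 and COL4A3, and COL4A3 and COL4A2, differed by less than their spread. In the shMETTL3 libraries COL5A2 stood at 35.7 ± 1.19 CPM per kilobase, COL7A1 was next with 21.5 ± 0.299, and COL4A2 and COL18A1 followed at 9.01 ± 0.363 and 8.75 ± 0.428, again within their spread.

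The make-up of collagen mRNA shifted accordingly. Fibrillar chains took 25.9% to 27.4% of the summed CPM per kilobase in the vector and 36.6% to 37.4% in the shMETTL3 libraries. Basement membrane chains took 39.1% to 41.0% and 27.1% to 27.5%, and the other collagens 32.2% to 34.9% and 35.1% to 36.3%. The ranges of the groups did not overlap for any class. Within these shares COL7A1 went from 5.05 ± 0.156% to 17.2 ± 0.252% (SD, n = 3) and COL5A1 from 1.16 ± 0.120% to 6.22 ± 0.129%, while COL4A4 went from 14.5 ± 0.493% to 3.66 ± 0.223%. These shares are bound to each other, since a rise of 1 gene lowers the share of the rest.

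**Figure D3:**
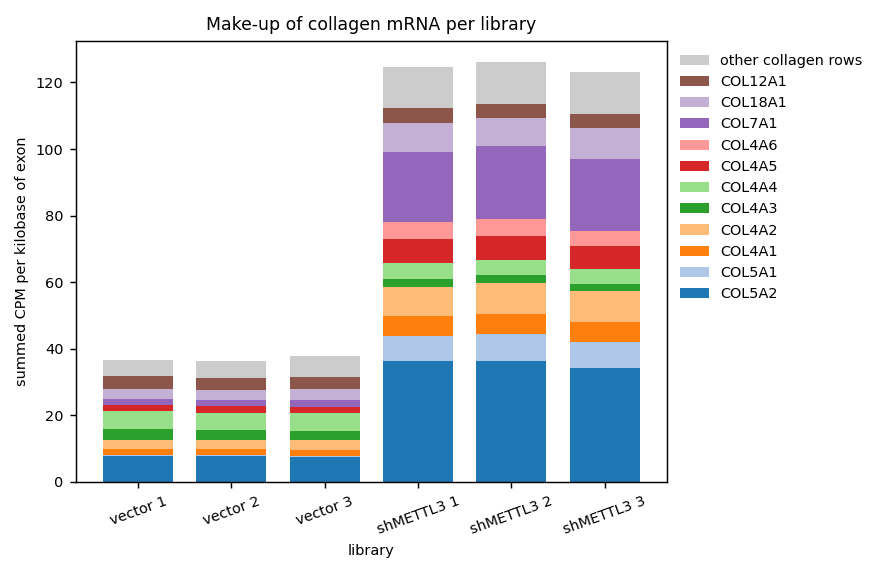
Summed CPM per kilobase of exon over the 43 collagen genes in each of the 6 libraries, stacked by gene for 11 genes with the rest in grey. The vector bars end at 36.4 to 37.7 and the shMETTL3 bars at 123 to 126, with COL5A2 and COL7A1 filling most of the added height.

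Ratios between paired chains do not depend on how libraries are scaled. Per kilobase, COL4A1 was at 0.590, 0.614 and 0.561 of COL4A2 in the vector and at 0.689, 0.675 and 0.659 in the shMETTL3 libraries. COL4A3 was at 0.579, 0.547 and 0.529 of COL4A4 and at 0.502, 0.524 and 0.511. Both ratios moved by little, although the groups did not overlap. COL5A1 was at 0.0488, 0.0609 and 0.0602 of COL5A2 in the vector and at 0.208, 0.218 and 0.227 in the shMETTL3 libraries. COL4A6 moved from 0.114, 0.0644 and 0.0373 of COL4A5 to 0.669, 0.711 and 0.649, and COL6A1 from 0.642, 0.308 and 0.455 of COL6A2 to 0.836, 0.960 and 0.808. In these 3 pairs the scarcer chain came closer to its partner. Each of the 5 ratios had a two-sided exact permutation p of 0.1, the lowest possible with 3 libraries against 3, and an adjusted p of 0.1 over the 5.

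**Figure D4:**
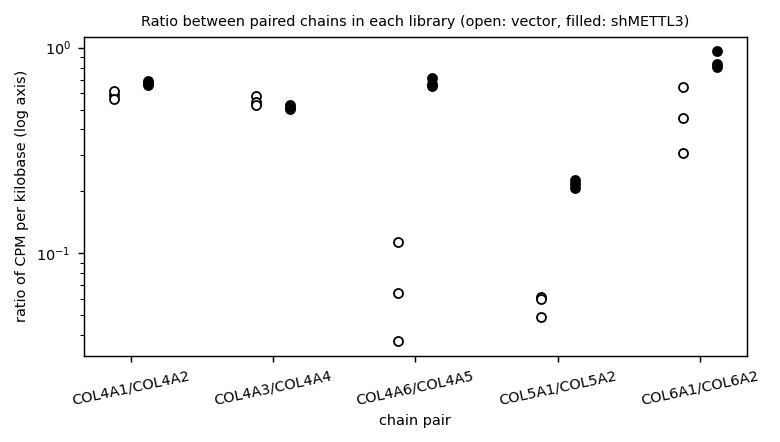
Ratio of CPM per kilobase between paired collagen chains on a log axis, with 1 point per library (open for 3 vector, filled for 3 shMETTL3 libraries). COL4A1/COL4A2 and COL4A3/COL4A4 lie between 0.502 and 0.689 in all libraries, whereas COL4A6/COL4A5 and COL5A1/COL5A2 rise from below 0.12 to above 0.2.

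Collagen chains are hydroxylated and glycosylated in the endoplasmic reticulum, folded by dedicated chaperones, exported in large carriers, trimmed outside the cell and cross-linked. Of 38 genes listed for these steps, 31 were tested, and 16 rose, 4 fell and 11 did not pass, with a median log2 fold change of 0.22. The share that rose, 51.6% of the tested genes, stands against 33.7% of all genes. With scaling by library totals only, 24 of these genes were called higher and none lower, where 6750 of all 15125 genes were called higher and the all-gene median was 0.18. The calls in either direction, 20 of 31, stand against 66.6% of all genes. Of the 13 tested enzymes that modify the chains 9 rose and 1 fell. The median of the 31 genes was 0.40 when only library totals were used for scaling.

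Among the hydroxylases, P4HA3, an alpha subunit of prolyl 4-hydroxylase, was at 8.69, 7.72 and 7.85 CPM in the vector and 58.6, 60.3 and 54.6 CPM in the shMETTL3 libraries (log2 fold change 2.84, SE 0.081, adjusted p = 2.33e-21). P4HA2 rose less, from 42.3, 46.5 and 45.2 CPM to 70.9, 72.2 and 70.7 CPM (log2 fold change 0.67, SE 0.058, adjusted p = 6.78e-11). P4HA1 had a log2 fold change of -0.12 (SE 0.072, adjusted p = 0.138), with vector values of 54.5, 47.8 and 43.0 CPM overlapping shMETTL3 values of 46.2, 44.7 and 42.8 CPM. It was called lower without vector replicate 3, at -0.21 (adjusted p = 0.00472). The alpha subunits of 1 enzyme thus showed different changes.

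PLOD2, the lysyl hydroxylase of the ends of fibrillar chains, went from 89.1, 89.2 and 78.2 CPM to 216, 199 and 205 CPM (log2 fold change 1.27, SE 0.057, adjusted p = 5.80e-17). P3H3, of the prolyl 3-hydroxylase family, went from 2.23, 3.71 and 3.19 CPM to 9.32, 9.43 and 9.20 CPM (log2 fold change 1.62, SE 0.154, adjusted p = 4.52e-10). For both genes every shMETTL3 library was above every vector library, as for 35.2% of all tested genes.

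Of the 10 folding and export genes, 4 rose, 1 fell and 5 did not pass, so 5 of 10 were called against 66.6% of all genes. SERPINH1, the collagen chaperone HSP47, was at 79.3, 78.5 and 84.3 CPM in the vector and 81.6, 81.0 and 85.5 CPM in the shMETTL3 libraries (log2 fold change 0.035, SE 0.054, adjusted p = 0.585). With scaling by library size alone it was called higher, at 0.21 (adjusted p = 0.00137). TRAM2, which couples collagen synthesis to the calcium pump of the endoplasmic reticulum, rose from 21.3, 20.5 and 19.9 CPM to 53.9, 52.6 and 52.8 CPM (log2 fold change 1.37, SE 0.067, adjusted p = 3.36e-16). TMEM38B, a potassium channel of that membrane, rose from 10.8, 10.0 and 10.2 CPM to 20.5, 20.7 and 21.1 CPM (log2 fold change 1.003, SE 0.088, adjusted p = 1.04e-10).

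Of the 14 trimming and cross-linking genes 8 were tested, with 3 higher and 2 lower, or 5 of 8 called against 66.6% of all genes. LOXL2, a lysyl oxidase that cross-links type IV collagen among other substrates, had the largest rise of the genes listed for making, binding or degrading collagen. It was at 4.90, 5.99 and 7.42 CPM in the vector and 97.4, 94.7 and 104 CPM in the shMETTL3 libraries (log2 fold change 4.02, SE 0.090, adjusted p = 1.38e-23). Without vector replicate 3 its log2 fold change was 4.17 and that of ITGA11 was 4.2, so this order turned round. LOX itself stayed near the floor, with 8, 9 and 11 counts against 13, 12 and 13 counts (log2 fold change 0.32, SE 0.395, adjusted p = 0.477). PXDN, the peroxidase that forms sulfilimine bonds in type IV collagen, went from 15.2, 14.0 and 16.0 CPM to 13.0, 12.4 and 10.1 CPM (log2 fold change -0.34, SE 0.102, adjusted p = 0.00477) and lost its call with scaling by library size alone (adjusted p = 0.158). The other genes called lower on the 3 lists, named after their values were seen, were CRTAP, PPIB and PCOLCE. PPIB was at 164, 169 and 182 CPM in the vector and 158, 96.7 and 174 CPM in the shMETTL3 libraries, so the groups overlapped and shMETTL3 replicate 2 stood apart. Without that library the value for PPIB was -0.046 on the log2 scale (adjusted p = 0.556), and without vector replicate 3 it also lost its call (adjusted p = 0.0720). The call was lost as well with DESeq2 (0.434, and 0.344 with the replicate block), library totals only (0.523), upper-quartile scaling (0.0554) and at least 10 counts in every library (0.0516), each value being an adjusted p.

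Of 15 genes for collagen receptors and collagen degradation 10 were tested, and 6 rose, 1 fell and 3 did not pass, with a median log2 fold change of 0.79. The 7 of 10 called are near the 66.6% of all genes, and the median was 0.36 with at least 10 counts in every library. ITGA11, MMP2 and DDR2 passed the count filter through the shMETTL3 libraries alone, so the counts and the median favour genes that rose. ITGA1, the subunit that prefers type IV collagen, fell from 14.3, 14.0 and 14.8 CPM to 4.66, 5.19 and 4.85 CPM (log2 fold change -1.55, SE 0.114, adjusted p = 2.57e-12). ITGA11, the receptor for fibrillar collagen on mesenchymal cells, had 3, 1 and 4 counts in the vector and 47, 49 and 29 counts in the shMETTL3 libraries (log2 fold change 3.78, SE 0.412, adjusted p = 4.68e-09), and its vector mean lay below the floor, so the size of its rise is poorly set. ITGA10 had 12, 11 and 10 counts against 34, 34 and 19 counts (log2 fold change 1.27, SE 0.316, adjusted p = 0.000879). Its call was lost with DESeq2 and a block for the replicate numbers (adjusted p = 0.0572). ITGA2, another collagen-binding subunit, was at 33.9, 32.2 and 35.2 CPM against 39.9, 31.6 and 36.3 CPM with overlapping groups (log2 fold change 0.089, SE 0.076, adjusted p = 0.310). It was named after its values were seen.

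MRC2, the endocytic receptor that takes up cleaved collagen, was at 17.3, 18.4 and 18.6 CPM in the vector and 90.7, 95.9 and 91.3 CPM in the shMETTL3 libraries (log2 fold change 2.36, SE 0.064, adjusted p = 1.01e-21). MMP2, a gelatinase that also cuts type IV collagen, had 11, 8 and 6 counts in the vector and 104, 96 and 77 counts in the shMETTL3 libraries (log2 fold change 3.34, SE 0.248, adjusted p = 2.89e-12). DDR2, a receptor kinase for fibrillar collagen, had 5, 5 and 8 counts against 12, 18 and 11 counts (log2 fold change 1.05, SE 0.436, adjusted p = 0.0332), and 7 of 14 alternatives did not call it, among them DESeq2 (adjusted p = 0.186). Its call was lost without vector replicate 1 or 2 or shMETTL3 replicate 2 or 3, with adjusted p of 0.122, 0.103, 0.151 and 0.0557. DDR1 was listed at 0 in all libraries and lies in the HLA region described for COL11A2. The genes called higher included ITGB1, the shared beta subunit of these integrins, which was named after its values were seen.

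**Figure D5:**
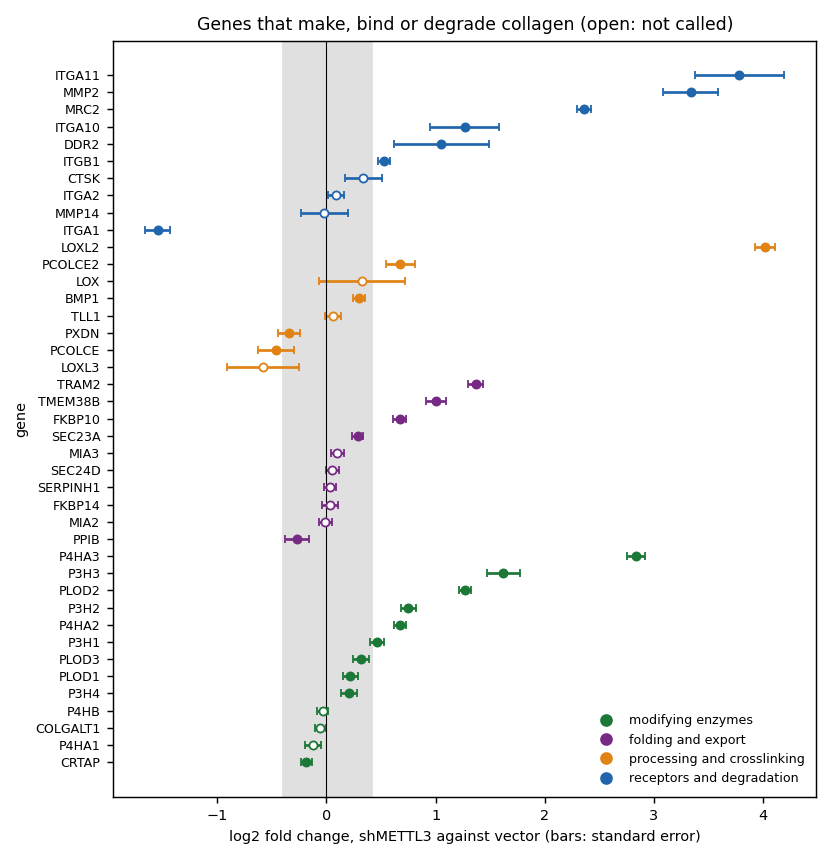
Log2 fold change between shMETTL3 and vector libraries for the 41 tested genes that make, bind or degrade collagen (bars are the standard error, n = 3 per group, open circles not called, grey band the middle 50% of all tested genes). LOXL2, ITGA11, MMP2, P4HA3 and MRC2 lie above 2, and ITGA1 is the only gene below -1.

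Markers of cells that make much collagen were low. The 7 fibroblast markers (DCN, LUM, PDGFRA, PDGFRB, THY1, FAP and POSTN) summed to 2.215 to 3.399 CPM in the vector and 4.35 to 7.04 CPM in the shMETTL3 libraries. Most of this was LUM (log2 fold change 0.46, adjusted p = 0.0621), and DCN was at 0 in all vector libraries. THY1 had 4, 0 and 1 counts in the vector and 32, 26 and 15 counts in the shMETTL3 libraries (higher, adjusted p = 1.70e-06). Of 4 endothelial markers 3 were in the table, with sums of 0 to 0.123 CPM and 1.40 to 1.95 CPM that came mainly from CDH5 (at least 9.12-fold higher, adjusted p = 2.53e-08), while VWF was at 0. The 4 leukocyte markers summed to 0.299 to 0.981 CPM and 5.84 to 6.74 CPM, nearly all of it CD14 (log2 fold change 3.55, SE 0.262, adjusted p = 2.58e-12), while CD3E was at 0 and PTPRC did not exceed 3 counts. Each of these sums was higher where the collagens were. The epithelial markers mostly went the other way, with log2 fold changes of -2.73 for EPCAM, -2.41 for KRT19, -1.35 for KRT18, -1.09 for KRT8 and -0.58 for CDH1, and of 0.29 for KRT7, which rose. The part of either shift in the collagen result was not tested.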

How the data were processed

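RNA-seq counts of 3 vector and 3 shMETTL3 libraries of A549 cells were used, with groups and replicate numbers from the sample titles. Per the labels, the submitters' processing notes name cutadapt 3.0, HISAT2 2.2.1, SAMtools 1.13 and HTSeq 0.13.5 with hg19, while the paper's methods give earlier versions of HISAT2 and htseq. The annotation and strand setting are not given in the sources used here, and without strand, reads of overlapping genes on opposite strands cannot be told apart. The authors deposited raw counts of reads per gene.

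From these counts, edgeR 4.0.16 in R 4.3.3 (TMM, filterByExpr with a minimum count of 10, glmQLFit and glmQLFTest by group) tested 15125 of 57781 rows, with Benjamini-Hochberg adjustment over all of them and a call at an adjusted p under 0.05. Every adjusted p in the report is from this test unless another is named. A standard error is the unshrunk coefficient over the root of its F statistic. Where no library of a group exceeded 3 counts, a fold is a bound against 3 counts per library, averaged over the group. Exon lengths, positions and opposite-strand overlaps came from the GENCODE annotation of GRCh37, which matched 38126 rows and all 43 collagens, and promoter sequences from RefSeq (GRCh38.p14). In simulated counts for this comparison, edgeR recovered 196 of 200 changed genes among 15125 and called 7 unchanged ones.

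The members and the lists were chosen with earlier results of these data known. A further collagen row is not reported here. Named in full are METTL3, collagens called with a mean of at least 1 CPM in a group and their chain partners, the 12 listed genes called with a log2 change of at least 1, and SERPINH1, P4HA1, P4HA2, PLOD2, LOX and PXDN. Replicates differed by more than sampling noise, with chi-square values per degree of freedom of 2.76 to 7.38 within and 78.0 to 98.1 between groups. The alternatives were other scalings, filters, tests (DESeq2 1.42.0, limma-voom from limma 3.58.1) and thresholds, a replicate block, a wider basement membrane class and leaving out each library.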

Additional observations from a re-analysis of the deposited data

How the results depend on the processing

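The direction and call of most results held: of 813 values under the alternatives, 759 stayed on their side of the threshold or within the margin set for them, 34 moved, 17 lost a call, 2 gained one and 1 reversed. In place of 24 changed collagens, 18 to 25 were called under other scalings, filters and tests, and 23 to 25 when 1 library was left out. With an absolute log2 fold change of at least 1, the calls were 17 collagens, 3 fibrillar collagens and 6 collagen-making genes, against 24, 5 and 20. With at least 10 counts in every library, 8 other collagens, all higher, and 4 receptor and degradation genes were called, against 13 and 7, since fewer genes were tested. With library size alone P4HA1 reversed to 0.052 (adjusted p = 0.569), and the cause was not tested.

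The replicate numbers were not shown to pair the libraries, with correlations of 0.0466, -0.00236 and 0.0329 between same-numbered libraries. With a replicate block edgeR called 24 collagens, and DESeq2 called 22 with the block and 23 without it. Under the DESeq2 block COL22A1 had an adjusted p of 0.0634, ITGA10 of 0.0572 and PXDN of 0.0794.

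Low counts limit the folds of COL11A1, COL15A1, COL16A1, COL20A1, COL21A1, COL22A1, COL25A1, ITGA10, ITGA11, DDR2 and MMP2, and genes of the HLA region cannot be judged.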
